A study of Mus musculus with 16 samples.

Results

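The genes described here are 29 genes of fatty acid oxidation and ketogenesis, picked by symbol from 22322 gene identifiers, and all 29 names matched a row in both the liver and the white adipose tissue table. They were measured by sequencing of poly(A) RNA from mice described as DIO (diet-induced obese), which had received halofuginone at 100 μg/kg or vehicle by intraperitoneal injection every 2 days for 8 weeks. Halofuginone is a quinazolinone that inhibits prolyl-tRNA synthetase. The vehicle groups, labelled HFD, held 5 livers and 3 fat libraries, and the halofuginone groups, labelled H100, held the same numbers. No lean group was analysed here. The labels give no age, strain, genetic modification, fat depot or sequencing batch, and do not say whether livers and fat came from the same mice or whether the numbered libraries were separate mice. The p-values therefore measure the spread between these libraries, which may in part be technical. Over vehicle and treated libraries together, 6 of 6 white adipocyte markers passed the filter on low counts in fat, among them Adipoq and Plin1, and 3 of 6 in liver. Of 6 hepatocyte markers 6 passed it in liver and 1 in fat.

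Mitochondria take up long-chain fatty acids as carnitine esters and shorten them by repeated rounds of dehydrogenation, hydration, a further dehydrogenation and thiolytic cleavage. In liver much of the acetyl-CoA so made is turned into ketone bodies. Peroxisomes run a related pathway for very long and branched chains, and microsomal Cyp4a enzymes hydroxylate the terminal carbon of fatty acids to make dicarboxylic acids, which peroxisomes then shorten. Many genes of all 3 routes are targets of PPARα, the nuclear receptor encoded by Ppara, which is highly active in the fasting liver.

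In vehicle tissue the microsomal genes, Ppara and Bdh1 had far higher levels in liver than in fat, whereas most mitochondrial genes were well expressed in both tissues. These levels are the authors' FPKM, which scale fragments by gene length and library size, and because each tissue has its own table, levels across tissues are described and not tested. Cyp4a14 (1108 ± 218 FPKM, SD, n = 5) and Cyp4a10 (971 ± 118) led the order in liver and did not differ beyond their spread. Every vehicle liver had more Cyp4a10 than any vehicle liver had of Acaa1b (542 ± 80.4), the next gene down, which encodes a peroxisomal thiolase. Acaa1b in turn overlapped with Acaa2 (481 ± 29.9), its mitochondrial counterpart. In vehicle fat the first places went to mitochondrial genes, with Etfb at 225 ± 69.4 FPKM (SD, n = 3) and Acadm at 215 ± 54.1, and these neighbours overlapped. Cyp4a10 and Cyp4a14 were last in fat, at 0.0900 ± 0.0693 and 0.0567 ± 0.0603 FPKM. Ppara stood at 32.6 ± 4.89 FPKM in liver and 0.507 ± 0.0208 in fat. Bdh1, which interconverts the ketone bodies acetoacetate and hydroxybutyrate, stood at 104 ± 9.23 and 0.267 ± 0.0702. Pdk4, a kinase that shuts down pyruvate dehydrogenase and so spares glucose, went the other way, with 5.60 ± 5.42 FPKM in liver and 155 ± 59.6 in fat. The liver carnitine palmitoyltransferase Cpt1a was at 126 ± 19.9 and 64.3 ± 5.89 FPKM, far above its muscle relative Cpt1b at 0.640 ± 0.357 and 1.12 ± 0.258.

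**Figure D1:**
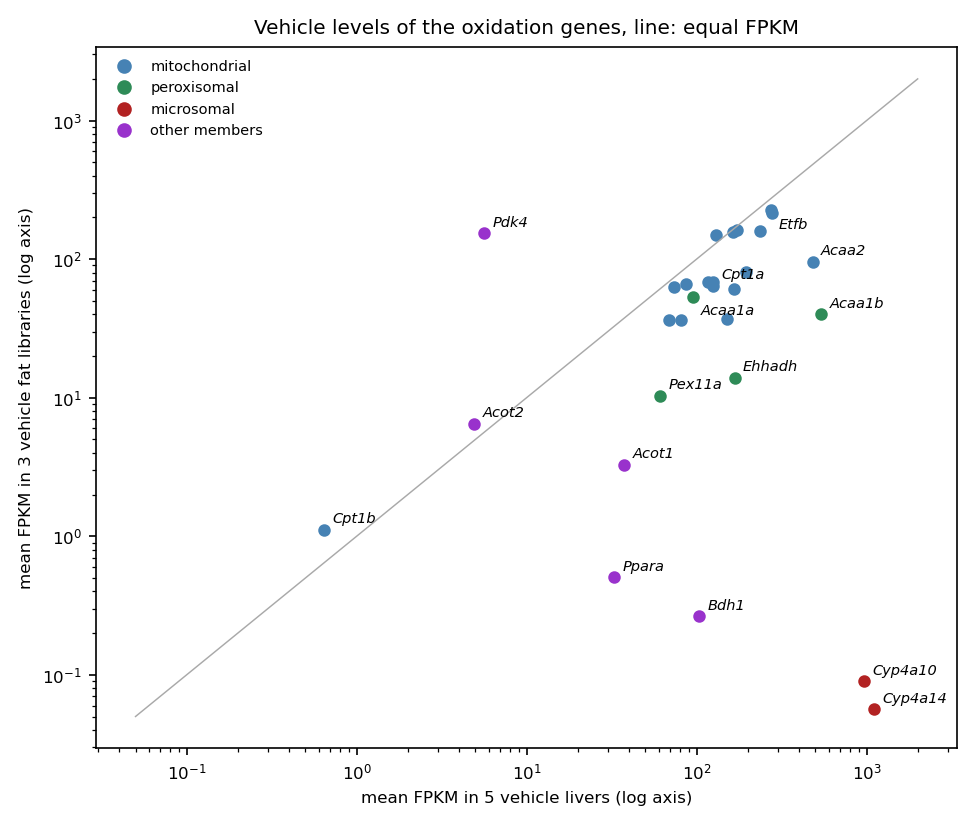
Mean FPKM of the 29 genes in 5 vehicle livers (x axis, log scale) against 3 vehicle fat libraries (y axis, log scale), 1 point per gene, coloured by compartment, with a line of equal FPKM. Cyp4a10, Cyp4a14, Bdh1 and Ppara lie far below the line, Pdk4 far above it, and most mitochondrial genes close to it.

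One treated library has to be described before the drug effect. Halofuginone liver 1 was above all 4 other halofuginone livers for 22 of the 29 genes. Set against the vehicle range it was below it for 9 genes (Cpt2, Slc25a20, Acadm, Acads, Hadh, Eci1, Eci2, Pex11a and Pdk4), inside it for 11 and above it for 9 (Ppara, Acadvl, Etfa, Etfb, Bdh1, Ehhadh, Cyp4a10, Cyp4a14 and Acot1). The same counts were not made over all genes tested, so they cannot be called particular to the 29 genes in this library. Its summed hepatocyte markers stood at 98983 CPM (each count relative to its library's TMM-adjusted total), against 37228 to 78869 in the other halofuginone livers and 104310 to 119118 in the vehicle livers. Its macrophage markers summed to 365 CPM against 181 to 241 in the other treated livers and 207 to 277 in vehicle. Its total of 20309956 counts was the lowest of the livers, which reached 31980683, while fat libraries held 17070614 to 21387799. Each liver result is therefore given with it and, where it matters, without it. The library was singled out by the values of these same genes, and leaving it out narrows the spread where it stood apart. The p-values without it are thus descriptive and give no independent support for a fall.

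In liver, part of the mitochondrial oxidation genes and the peroxisome factor Pex11a were lower after halofuginone, and the thioesterase Acot2 was higher. With edgeR's quasi-likelihood test and Benjamini-Hochberg adjustment over 12311 genes, a gene is called here at an adjusted p under 0.05. All 29 passed the filter on low counts. Of these, 8 were called lower (Slc25a20, Acadm, Acads, Hadh, Hadha, Eci1, Etfdh and Pex11a), 1 was called higher (Acot2) and 20 were not called. Over all genes tested 10.5% were called lower and 12.7% higher. DESeq2 called 11 lower, those 8 with Hadhb, Acaa2 and Eci2, and 1 higher, against 14.2% and 15.4% of all genes. The median log2 fold change of the 29 genes was −0.62, with 25 of 29 below 0, against 0.017 over all genes. Without halofuginone liver 1 the counts were 19 lower, 1 higher and 9 not called, with a median of −0.84, beside 21.6% and 21.2% of all genes called lower and higher. The number called lower also depended on other single libraries. It was 5 without halofuginone liver 3 or 4 or vehicle liver 2, 4 or 5, and 3 without halofuginone liver 5. Calls over all genes fell too, from 1292 lower to 579 without halofuginone liver 3 and 667 without halofuginone liver 5. They were 724, 814 and 823 without vehicle liver 2, 4 and 5. Scaled by library size alone, which moved the median of all genes by 0.16, or tested on log2 FPKM, the split of all calls moved from 54.7% higher to 76.9% and to 72.7% or 72.8%. The genes described here called lower then numbered 6, 10 and 10. Over all genes 838, 784 and 780 were called lower in these fits, against 1292 in the first edgeR fit.

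For 7 of the 29 genes (Slc25a20, Acadm, Acads, Hadh, Eci1, Eci2 and Pex11a) all 5 halofuginone livers lay below all 5 vehicle livers, as did 6.55% of all genes tested. In bulk tissue, fewer cells of a type and less RNA per cell cannot be told apart. The hepatocyte markers moved in the same libraries: of 6 markers Ttr was called lower and Tat higher, none was at 0, and their sum, carried mostly by Alb, ran from 37228 to 98983 CPM in treated liver. Its part in the results was not tested.

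**Figure D2:**
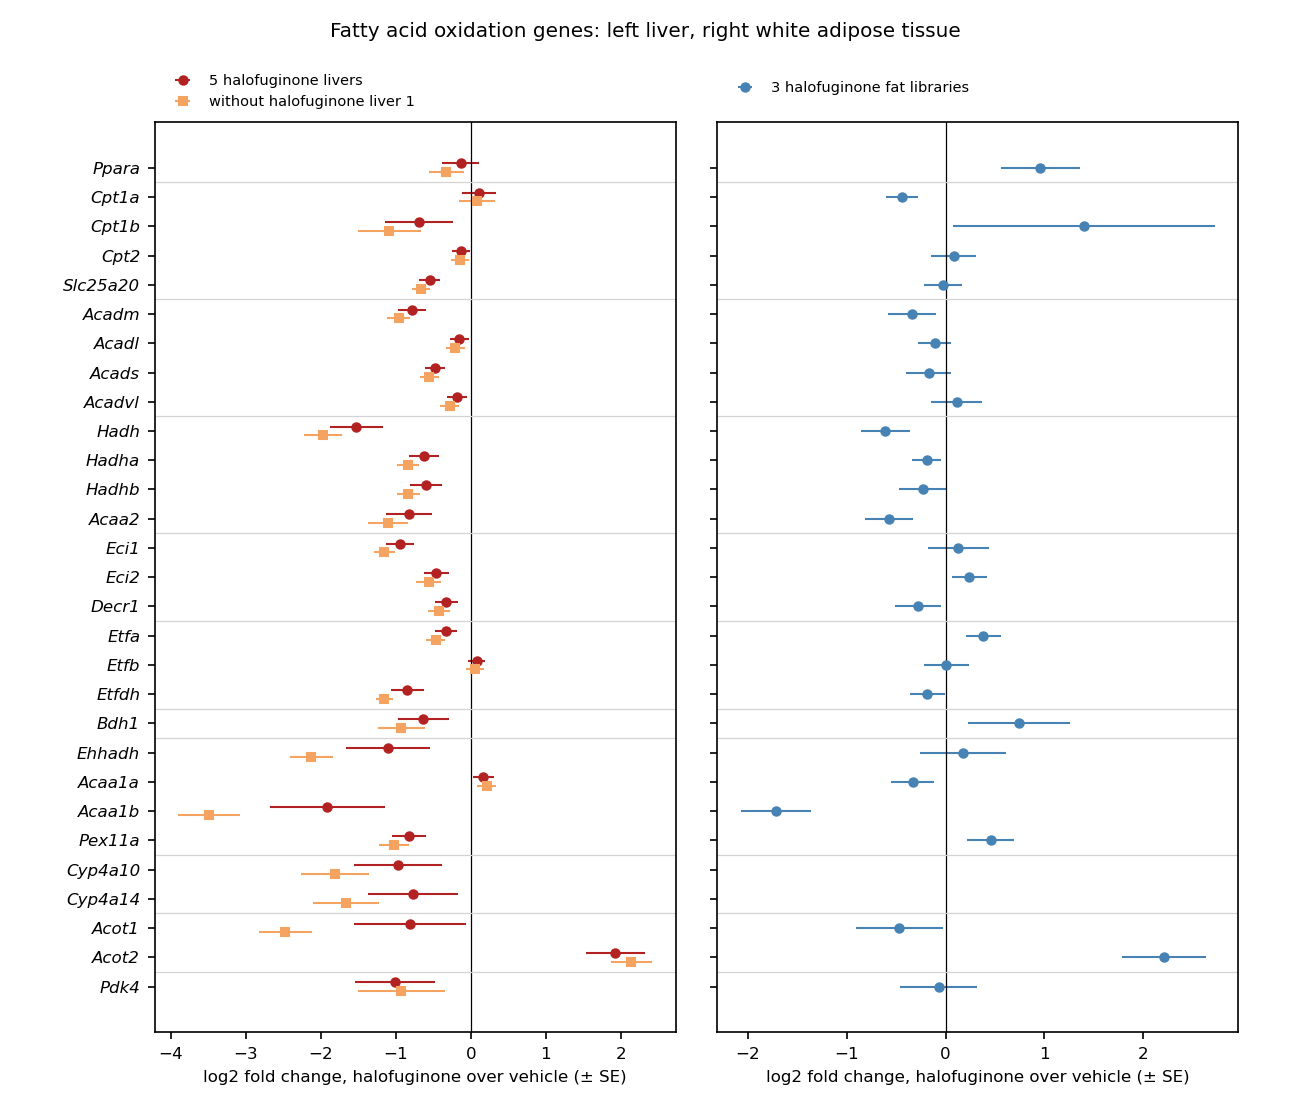
Log2 fold change, halofuginone over vehicle, of each gene with its standard error (edgeR), in liver on the left with all 5 treated livers (circles) and without halofuginone liver 1 (squares), and in fat on the right; grey lines part the functional groups. In liver 25 of 29 genes lie left of 0 and Acot2 far to the right, and in fat Acot2 and Acaa1b lie farthest out; Cyp4a10 and Cyp4a14 were too low in fat to be tested.

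Hadh, the mitochondrial hydroxyacyl-CoA dehydrogenase for short and medium chains, fell most among the 8 genes called lower. It stood at 439.9, 451, 360.2, 500.3 and 485 CPM in vehicle livers 1 to 5 and at 314, 69.4, 84.3, 174 and 134 CPM in halofuginone livers 1 to 5, and the highest treated liver, number 1, was below the lowest vehicle liver. The group means were 447 ± 54.6 and 155 ± 98.1 CPM (SD, n = 5), which is −1.53 as a log2 fold change (SE 0.35, adjusted p 0.0151 in edgeR), or 2.88-fold lower. Without halofuginone liver 1 it was −1.97 (adjusted p 0.000187). Hadha and Hadhb, the 2 chains of the trifunctional protein that handles long chains, had log2 fold changes of −0.62 and −0.60, but Hadha was called (adjusted p 0.0394) and Hadhb was not (0.0593). Hadha levels in halofuginone livers 1 to 5 were 516, 216, 313, 333 and 342 CPM against 485 to 563 in vehicle, so that liver 1 sat inside the vehicle range. Its call rested on all the libraries, since leaving out any 1 of the other 9 ended it (adjusted p 0.0538 to 0.0953). Without halofuginone liver 1 both chains were called, each at −0.84. The mitochondrial thiolase Acaa2 was at 769 ± 32.4 and 436 ± 219 CPM (SD, n = 5; −0.82, adjusted p 0.0716), and at −1.11 (adjusted p 0.00731) without that liver.

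Among the acyl-CoA dehydrogenases, which open each round of oxidation, the medium-chain and short-chain enzymes fell while the long-chain ones were not called. Acadm (medium chain) stood at 623, 534, 567, 621 and 664 CPM in the vehicle livers and 498, 223, 310.0, 369.5 and 352 in the halofuginone livers, with no overlap, a log2 fold change of −0.78 (SE 0.19, adjusted p 0.0173). Acads (short chain) ran from 134 to 156 CPM in vehicle and from 76.5 to 122 after halofuginone (−0.48, SE 0.13, adjusted p 0.0265). The Acads call was lost without halofuginone liver 3 or 5 or vehicle liver 2, 4 or 5 (adjusted p 0.0722, 0.0578, 0.0603, 0.0584 and 0.0547). Acadl (long chain) had 264 ± 14.6 and 238 ± 37.6 CPM (SD, n = 5; −0.15, adjusted p 0.397), and Acadvl (very long chain) 445 ± 13.9 and 392 ± 70.4 (−0.18, adjusted p 0.338). Neither was called without halofuginone liver 1 either (adjusted p 0.205 and 0.0964). Whether the chain-length classes differed from each other was not tested.

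The carnitine entry step showed 1 called gene of 4. Slc25a20, the translocase that exchanges acylcarnitine for carnitine across the inner membrane, stood at 132, 124, 114, 135 and 143 CPM in vehicle and 111, 64.4, 91.2, 96.3 and 80.3 in treated livers, with no overlap (−0.55, SE 0.14, adjusted p 0.0196), and its call was lost without halofuginone liver 5 (adjusted p 0.0529). Cpt1a, the malonyl-CoA-sensitive gate of the pathway, was not called (log2 fold change 0.11, SE 0.23, adjusted p 0.760). Its levels were 662, 532, 455, 606 and 594 CPM in vehicle and 625, 304, 593, 757 and 787 in treated livers, where livers 4 and 5 were above and liver 2 below the vehicle range. Cpt2, which reforms acyl-CoA inside, had 202 ± 19.97 and 185 ± 24.0 CPM (SD, n = 5; −0.13, adjusted p 0.456; 0.032 with library size alone and 0.028 with limma on log2 FPKM). Cpt1b was low, at 0.485 to 3.58 CPM over the 10 livers, and was not called (adjusted p 0.278).

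The auxiliary enzymes that deal with double bonds and the electron carriers gave a mixed picture. Eci1, an enoyl-CoA isomerase, fell from 125, 158, 123, 136 and 155 CPM in vehicle livers to 108, 47.6, 61.0, 73.0 and 72.8 in treated livers (−0.94, SE 0.19, adjusted p 0.00971; −1.15 without halofuginone liver 1). Its relative Eci2, found in mitochondria and peroxisomes, also did not overlap between groups (217 to 237 against 97.0 to 198 CPM) yet was not called (−0.46, adjusted p 0.0612); it passed when treated liver 1 (0.0170) or treated liver 2 (0.0412) was left out. The dienoyl-CoA reductase Decr1 was at −0.33 (adjusted p 0.129), and was called lower without halofuginone liver 1 (−0.42, 0.0371). Etfdh, which passes electrons from the flavoprotein to ubiquinone, stood at 399, 378, 374, 362 and 392 CPM in vehicle and 367, 144, 187, 198 and 165 in treated livers. Halofuginone liver 1 lay inside the narrow vehicle range and the other 4 far below it. Its log2 fold change was −0.85 (SE 0.22, adjusted p 0.0234), −1.16 (adjusted p 3.73e-05) without that liver, and the call was lost without halofuginone liver 3, 4 or 5 or vehicle liver 2 (0.0633, 0.0533, 0.0601 and 0.0513). The flavoprotein subunits themselves were not called, Etfa at −0.33 (adjusted p 0.116) and Etfb at 0.077 (0.663). Etfa was called without halofuginone liver 1 (−0.47, adjusted p 0.0108), and Etfb was not (0.056, 0.737).

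**Figure D3:**
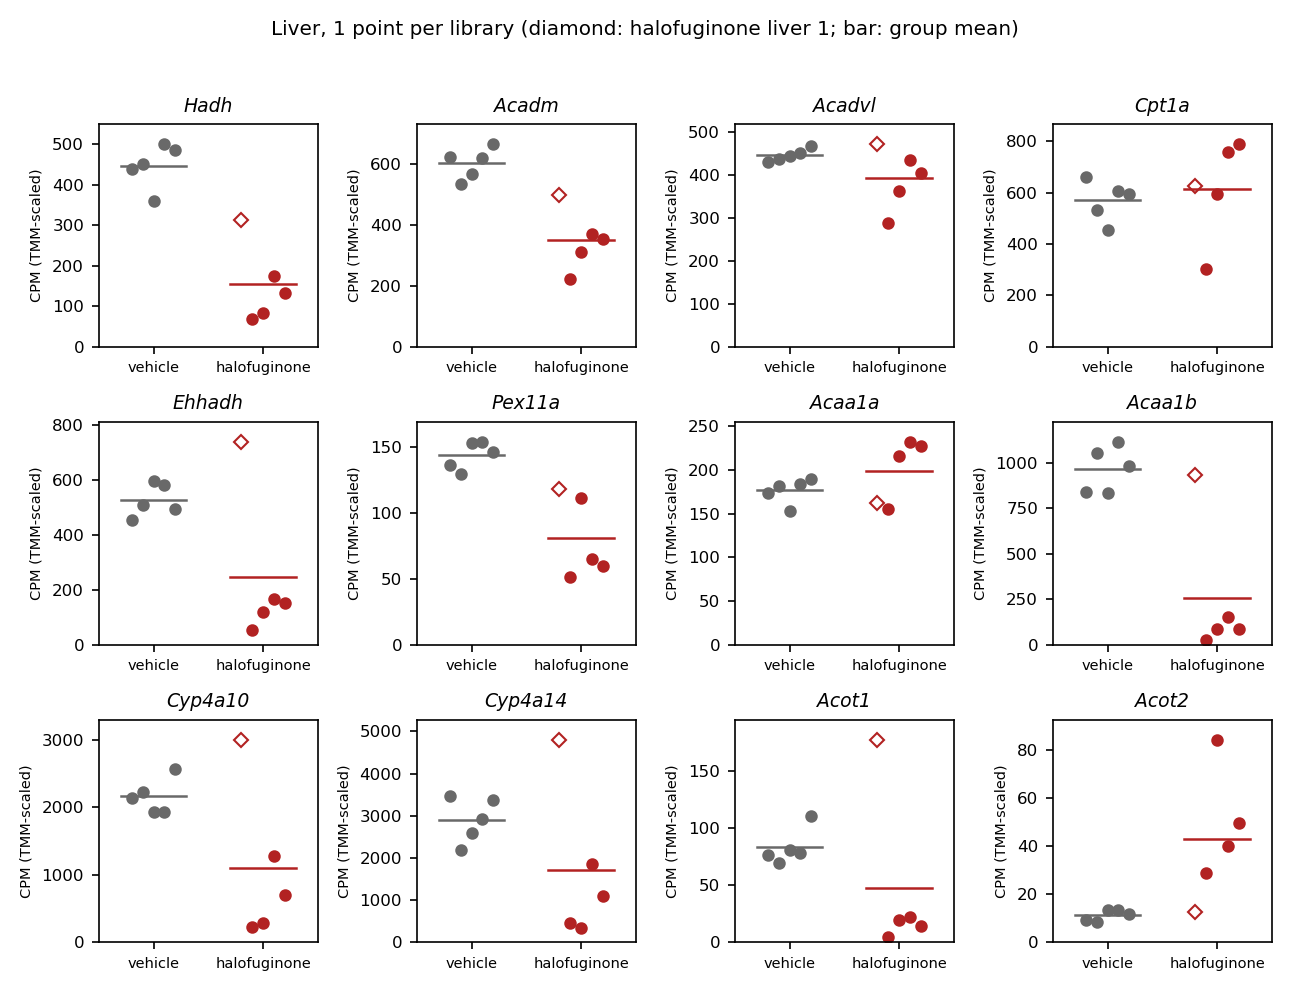
CPM of 12 genes in each liver (y axes from 0, linear), vehicle in grey and halofuginone in red, with a bar at each group mean and an open diamond for halofuginone liver 1. For Ehhadh, Acaa1b, Cyp4a10, Cyp4a14 and Acot1 the diamond lies among or above the vehicle points while the 4 filled red points lie below them all; for Hadh and Acadm every red point lies below every grey point.

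Of the 4 peroxisomal genes only Pex11a was called. Pex11a, which drives the division of peroxisomes, stood at 136, 129.8, 153, 154 and 146 CPM in vehicle and 118, 51.2, 112, 65.0 and 59.6 in treated livers, with no overlap. Its log2 fold change was −0.83 (SE 0.22, adjusted p 0.0249), and the call was lost without halofuginone liver 4 or 5 or vehicle liver 3, 4 or 5 (0.0583, 0.0618, 0.0513, 0.0525 and 0.0505). Ehhadh, the bifunctional hydratase and dehydrogenase of peroxisomes, stood at 453, 508, 597, 583 and 495 CPM in vehicle and 739, 53.1, 118, 167 and 152 in treated livers. Treated liver 1 was above every vehicle liver and the other 4 were below every one, and edgeR did not call the gene over all 10 libraries (−1.10, SE 0.56, adjusted p 0.165). DESeq2 gave it no adjusted p. With limma on log2 FPKM it was called lower over all 10 (−1.52 and −1.50, adjusted p 0.0407 and 0.0403 at pseudocounts of 0.1 and 1). Without that liver it was 4.36-fold lower (−2.13, SE 0.29, adjusted p 0.000247).

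The peroxisomal thiolases Acaa1a (ENSMUSG00000036138) and Acaa1b (ENSMUSG00000010651) are close relatives. Their upstream regions are shown because their log2 fold changes had opposite signs in liver, though edgeR called neither over all livers. Each sequence is the 250 bases before the RefSeq start (GRCm38.p6, the build of that table and not the mm39 build of the counts), with every CCAAT, or ATTGG for the other strand, in capitals.

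Acaa1a, chr9:119341044-119341293, plus strand: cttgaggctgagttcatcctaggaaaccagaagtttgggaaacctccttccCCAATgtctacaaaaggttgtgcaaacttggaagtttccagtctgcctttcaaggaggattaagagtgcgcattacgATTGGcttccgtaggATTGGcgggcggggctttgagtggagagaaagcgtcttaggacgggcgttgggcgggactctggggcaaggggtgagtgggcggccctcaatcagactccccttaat

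Acaa1b, chr9:119157094-119157343, minus strand: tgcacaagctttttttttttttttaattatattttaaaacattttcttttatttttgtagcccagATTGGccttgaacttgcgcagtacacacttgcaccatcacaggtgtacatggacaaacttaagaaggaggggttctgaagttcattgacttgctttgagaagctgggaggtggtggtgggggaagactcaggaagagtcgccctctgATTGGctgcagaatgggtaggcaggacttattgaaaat

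Acaa1a held 3 CCAAT matches and Acaa1b held 2. Over both strands, 12 of the 25 upstream windows found for 24 of the 29 genes held CCAAT, as did 33.8% of all 32851 windows of this length in the table. A PPAR response element of the DR1 type was searched as AGGTCA repeated in the same direction with 1 base (N) between the copies, with at most 2 mismatches, on either strand. It was found in 1 of the 25 windows, that of Etfa, and in 3.24% of all windows, so neither thiolase window nor either thioesterase window printed further on held it. That says only that these letters are not in these windows.

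Acaa1b stood at 841, 1051, 836, 1114 and 982 CPM in vehicle livers 1 to 5 and at 934, 26.4, 83.4, 151 and 88.5 CPM in halofuginone livers 1 to 5. Treated liver 1 lay inside the vehicle range and the other 4 were far below it. Over all 10 livers the log2 fold change was −1.91 (SE 0.76, edgeR adjusted p 0.0881, not called), and without halofuginone liver 1 it was −3.49 (SE 0.41, adjusted p 0.000116), or 11.2-fold lower. With limma on log2 FPKM it was called lower over all 10 (−2.81 and −2.79, adjusted p 0.0160 and 0.0159 at pseudocounts of 0.1 and 1). Acaa1a stood at 174, 182, 153, 184 and 189 CPM in vehicle and 162, 155, 216, 232 and 228 in treated livers and was not called (0.17, SE 0.14, adjusted p 0.386; 0.21, 0.203 without liver 1). The ratio of Acaa1b to Acaa1a FPKM, looked at after these values were seen, was 5.03 to 6.30 in the vehicle livers. It was 5.98 in halofuginone liver 1 and 0.176 to 0.669 in the other 4. Of the 100-base windows of the longest Acaa1a and Acaa1b transcripts, 21.6% and 22.6% occur in the other gene (GENCODE M21), so reads from these stretches may have been split between them in the authors' counting.

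The microsomal genes Cyp4a10 and Cyp4a14, fatty acid ω-hydroxylases, were the most abundant of the 29 per length in vehicle liver. Cyp4a10 stood at 2141, 2220.2, 1936, 1935 and 2572 CPM in vehicle and 2996, 223, 289, 1281 and 703 in treated livers. Cyp4a14 stood at 3458, 2198, 2604, 2919.5 and 3381 and 4798, 461, 331, 1847 and 1091 CPM. For both genes treated liver 1 was above, and treated livers 2 to 5 were below, all vehicle livers. Neither was called over all livers (−0.98, SE 0.59, adjusted p 0.237, and −0.77, SE 0.60, 0.360). Without halofuginone liver 1 both were called lower, by 3.51-fold (−1.81, adjusted p 0.00806) and 3.17-fold (−1.66, 0.0116). The longest Cyp4a10 and Cyp4a14 transcripts share 0 windows of 100 bases, but Cyp4a10 shares 5.37% of its windows with Cyp4a31 and 9.80% with Cyp4a32, so its counts may include reads of those genes.

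Set side by side, the 18 mitochondrial genes had 7 called lower and a median log2 fold change of −0.51, the 4 peroxisomal genes 1 and −0.96, and the 2 microsomal genes 0 and −0.87, where 10.5% of all genes were called lower. Without halofuginone liver 1 the counts were 12, 3 and 2 and the medians −0.61, −1.57 and −1.74, where 21.6% of all genes were called lower. The mean log2(CPM + 0.5) of each compartment, taken relative to the vehicle mean, was within −0.17 and 0.25 in every vehicle liver. In halofuginone livers 1 to 5 it was −0.077, −1.14, −0.69, −0.36 and −0.49 for the mitochondrial genes. For the peroxisomal genes it was 0.015, −2.53, −1.43, −1.26 and −1.53, and for the microsomal genes 0.61, −2.95, −3.003, −0.69 and −1.50. Treated livers 2 to 5 were thus below the vehicle range in every compartment, whereas treated liver 1 was below it only for the mitochondrial genes, inside it for the peroxisomal ones and above it for the microsomal ones. With 4 and 2 genes, some of them close relatives, the peroxisomal and microsomal values rest on few transcripts, and the difference between compartments was not tested.

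**Figure D4:**
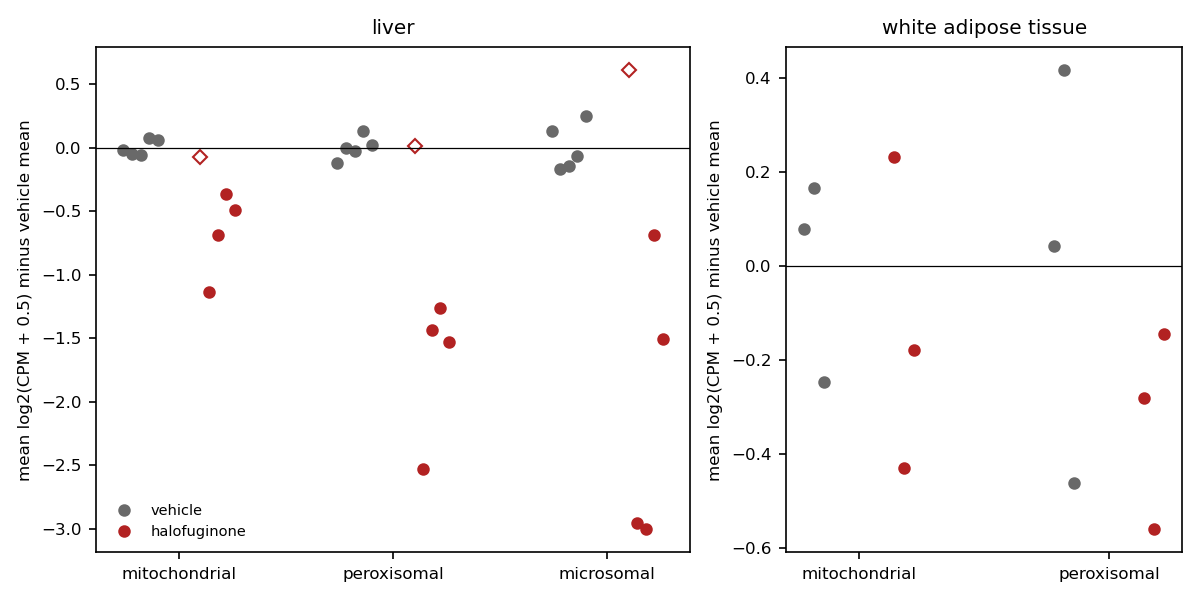
Mean log2(CPM + 0.5) of the mitochondrial, peroxisomal and, in liver, microsomal genes in each library minus the vehicle mean (y axes, linear), vehicle in grey and halofuginone in red, liver on the left with an open diamond for halofuginone liver 1 and fat on the right. In liver the filled red points reach −1.14, −2.53 and −3.003 while the diamond stays near or above 0; in fat the groups overlap.

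Acot1 (ENSMUSG00000072949, cytosolic) and Acot2 (ENSMUSG00000021226, mitochondrial) encode acyl-CoA thioesterases, which release free fatty acid from its CoA ester. They too are close relatives with log2 fold changes of opposite sign in liver, though edgeR called only Acot2 over all livers. Their 250 upstream bases are given in the same way.

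Acot1, chr12:84009252-84009501, plus strand: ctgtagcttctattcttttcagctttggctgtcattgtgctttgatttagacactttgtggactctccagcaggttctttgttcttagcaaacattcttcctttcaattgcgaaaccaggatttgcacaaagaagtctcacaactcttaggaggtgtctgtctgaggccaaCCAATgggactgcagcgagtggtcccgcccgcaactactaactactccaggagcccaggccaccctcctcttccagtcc

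Acot2, chr12:83987611-83987860, plus strand: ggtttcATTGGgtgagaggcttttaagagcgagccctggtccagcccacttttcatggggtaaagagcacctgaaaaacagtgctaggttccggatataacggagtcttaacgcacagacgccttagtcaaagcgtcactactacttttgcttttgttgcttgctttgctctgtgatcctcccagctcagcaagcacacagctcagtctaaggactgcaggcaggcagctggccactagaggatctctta

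Each window held 1 CCAAT match. Acot2 stood at 9.23, 8.62, 13.4, 13.7 and 12.0 CPM in vehicle livers 1 to 5 and at 12.7, 29.0, 84.4, 40.2 and 49.9 CPM in halofuginone livers 1 to 5. Treated livers 2 to 5 were above, and treated liver 1 was inside, the vehicle range. Acot2 rose 3.80-fold (log2 1.93, SE 0.39, adjusted p 0.0103) and its call survived the loss of any single library (adjusted p up to 0.0304). Acot1 stood at 77.0, 69.5, 81.3, 78.3 and 111 CPM in vehicle and 178, 4.92, 19.5, 22.2 and 14.3 in treated livers. Treated liver 1 was above all vehicle livers and the other 4 below them, and the value over all libraries was −0.81 (SE 0.75, edgeR adjusted p 0.449, with no adjusted p from DESeq2). Without treated liver 1 it was −2.47 (SE 0.35, adjusted p 0.000356), 5.55-fold lower. The ratio of Acot1 to Acot2 FPKM, also looked at after the values, was 5.85 to 10.4 in vehicle livers, 14.7 in treated liver 1 and 0.1798 to 0.594 in the other 4. The longest transcripts of Acot1 and Acot2 share 16.5% and 17.1% of their 100-base windows, and the authors' counting could have split reads between them.

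The regulator and the fuel-selection genes were not called in liver. Ppara stood at 108, 78.1, 90.1, 108 and 104 CPM in vehicle and 129, 39.0, 81.0, 102 and 93.3 in treated livers (−0.13, SE 0.25, adjusted p 0.720; 0.00059 with library size alone), with treated liver 1 above and treated liver 2 below the vehicle range. Without treated liver 1 it was −0.33 (adjusted p 0.287). Bdh1 stood at 217, 211, 186, 223 and 218 CPM in vehicle and 228, 37.9, 111, 161 and 142 in treated livers (−0.64, adjusted p 0.188), and was called lower without treated liver 1 (−0.92, 0.0371). Pdk4 was low and uneven, at 11.9, 15.7, 57.4, 10.2 and 8.42 CPM in vehicle and 6.90, 14.8, 16.5, 6.67 and 6.07 in treated livers, and its value of −1.01 (SE 0.54, adjusted p 0.182) rested largely on vehicle liver 3, since it was −0.19 without that library.

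Other genes of these pathways, 79 in all and 76 of them tested, were lower more often than higher in liver, with 26 called lower and 1 higher (median −0.52), beside 10.5% and 12.7% of all genes. These counts were 44 and 2 without halofuginone liver 1, beside 21.6% and 21.2%, the added gene called higher being the transporter Slc16a6 (0.95, adjusted p 0.0152). Among the other ketone body genes Acat1, the mitochondrial acetoacetyl-CoA thiolase, fell (−0.72, adjusted p 0.0233). Of the other mitochondrial genes 6 of 14 tested were lower, led by Hsd17b10, a mitochondrial hydroxyacyl-CoA dehydrogenase (−1.51, 0.00317), Acad12 (−1.26) and Acad10 (33.5 ± 3.99 CPM in vehicle and 16.8 ± 4.51 in treated livers). Of 28 other peroxisomal genes 10 were lower, among them the dienoyl-CoA reductase Decr2 (−1.08), catalase (Cat, −1.05) and the enoyl-CoA reductase Pecr (−1.03). Of 8 other microsomal genes 1 was lower, Cyp4v3 (−0.67, adjusted p 0.0320), a share near that of all genes. With halofuginone liver 1 left out it was 5 of 8, and the other mitochondrial and peroxisomal lists then had 9 of 14 and 18 of 28 called lower.

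Among 12 regulators and partners of PPARα, 3 were lower and 1 higher, beside 10.5% and 12.7% of all genes. These counts were 4 and 1 without halofuginone liver 1, beside 21.6% and 21.2%. Fgf21, a hormone made by liver and a known PPARα and ATF4 target, rose 7.51-fold (2.91, SE 0.51, adjusted p 0.00617). Pparg, the adipocyte member of the receptor family, fell (−1.26, 0.00947), as did the coactivator Ppargc1a (−0.92, 0.0492) and, named after its value was seen, the hepatocyte factor Hnf4a (−0.71, 0.0269; call lost without halofuginone liver 3 or 5 or vehicle liver 1, 2 or 3, adjusted p up to 0.0689). Of 7 tested other PPARα targets 3 were lower, the fatty acid transporter Cd36 (−1.73, 0.00158), the pantetheinase Vnn1 (−1.49, 0.0257) and the monoglyceride lipase Mgll (−1.07, 0.0281). That count was 5 of 7 without halofuginone liver 1. Summed white adipocyte markers were lower in the same livers, at 81.8 to 167 CPM in vehicle and 21.4 to 67.3 in treated livers. Of these 6 markers 3 had at most 3 counts in every liver, Lep having 0, and 2 of the 3 tested were called lower. Of 6 brown or beige markers (74.4 to 134 and 19.98 to 62.1 CPM) 2 had at most 3 counts in every liver, Ucp1 having 0, and 2 of 2 tested were called lower. The fibroblast and stellate cell markers (197 to 284 and 132 to 219 CPM) had 3 of 6 called lower. Their part in the values of Pparg and Cd36 was not tested. The calls of Hsd17b10, Acad12, Acad10, Pecr, Fgf21, Pparg and Cd36 stood without each library in turn. That of Ppargc1a was lost without any 1 library but halofuginone liver 1 (adjusted p up to 0.115). Those of Acat1, Decr2, Cat, Cyp4v3, Vnn1 and Mgll were lost without 4 to 8 of the 10 libraries taken singly, with adjusted p up to 0.0641, 0.0785, 0.0722, 0.0845, 0.0682 and 0.0732.

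In white adipose tissue no oxidation gene was called. Of the 29 genes 27 were tested, Cyp4a10 and Cyp4a14 being too low, and their median log2 fold change was −0.070, with 12 above and 15 below 0. edgeR called 0 of 14030 genes (0%) with 3 libraries a group, while 13.4% had an unadjusted p under 0.05, among them Acot2, Acaa1b, Cpt1a, Hadh and Ppara. DESeq2 called 723 genes, 1.67% of those tested being higher and 3.48% lower, with Acot2 higher and Acaa1b lower among the 29.

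Acot2 stood at 14.9, 17.03 and 11.7 CPM in vehicle fat 1 to 3 and at 107, 63.7 and 32.5 CPM in halofuginone fat 1 to 3, with no overlap. Its log2 fold change was 2.21 (SE 0.43, edgeR p 0.00134, adjusted p 0.156; DESeq2 adjusted p 8.71e-05). In 1 edgeR fit of all 16 libraries its adjusted p was 0.0394. Acaa1b stood at 81.9, 88.5 and 35.7 CPM in vehicle and 20.9, 17.2 and 24.7 in treated fat, again with no overlap (−1.71, SE 0.36, p 0.00203, adjusted p 0.160; DESeq2 adjusted p 0.000736). Groups that do not overlap were common in fat, with 10.2% of all genes higher and 10.4% lower in this way. Acaa1a had 95.6 ± 24.6 and 75.9 ± 8.92 CPM (SD, n = 3; −0.33, adjusted p 0.565), and the ratio of Acaa1b to Acaa1a FPKM was 0.513 to 0.916 in vehicle and 0.256 to 0.303 in treated fat. Acot1 had 7.53 ± 3.12 and 5.46 ± 2.37 CPM (−0.47, adjusted p 0.706; 0.087 and 0.068 with limma on log2 FPKM).

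Cpt1a stood at 261, 266 and 324 CPM in vehicle and 189, 220.4 and 218 in treated fat, without overlap but not called (−0.44, SE 0.16, p 0.0298, adjusted p 0.325). Hadh stood at 308, 351 and 207 and 227, 155 and 185 CPM (−0.61, p 0.0445, adjusted p 0.358), with treated fat 1 inside the vehicle range. Etfa was above the vehicle range in all 3 treated libraries, at 291, 299.9 and 285 CPM against 273, 206 and 193 (0.38, adjusted p 0.410). Ppara was barely expressed, at 1.44 CPM in each vehicle library and 3.91, 1.86 and 2.68 in treated fat (0.96, p 0.0482, adjusted p 0.368). Pdk4, abundant in fat, overlapped between the groups, at 751, 556 and 341 and 779.9, 452 and 338 CPM (−0.07, adjusted p 0.961). The remaining tested members had log2 fold changes between −0.57 (Acaa2) and 1.40 (Cpt1b), with adjusted p of 0.376 or more.

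Cpt1b in fat was set by 1 library. It stood at 2.46, 3.55 and 3.98 CPM in vehicle and 24.7, 0.279 and 1.42 in treated fat, and its log2 fold change of 1.40 became −1.97 without treated fat 1. In that library 6 markers of brown or beige fat summed to 99.8 CPM, with Ucp1 at 45.4, against 2.84 and 4.68 in the other treated libraries and 8.45 to 11.3 in vehicle. The part of such cells in the value was not tested. Sums of 4 other marker lists did not overlap between the fat groups. Macrophage markers summed to 4277 to 9319 CPM in vehicle and 2800 to 3042 in treated fat, and fibroblast markers to 3543 to 5203 and 2617 to 3181. Skeletal muscle markers, mostly Acta1, summed to 95.8 to 177 and 54.8 to 64.2, and exocrine pancreas markers to 24.1 to 44.2 and 16.5 to 21.7. Of the 6 pancreas markers only 1 passed the filter on low counts, and 3 had at most 3 counts in every fat library. White adipocyte markers overlapped, at 6782 to 14891 and 8877 to 13318 CPM. Vehicle fat 3 gave the 6782, against 14189 and 14891 in vehicle fat 1 and 2, and also the highest macrophage sum (9319, against 5070 and 4277). Among vehicle fat it was lowest in mean log2(CPM + 0.5) relative to the vehicle mean, at −0.25 for the mitochondrial and −0.46 for the peroxisomal genes. With 3 libraries a group, such a library weighs on every fat result. Epididymis markers reached 76.2 CPM in vehicle fat 3 and 14.8 in treated fat 1. Of these lists 0 genes were called in fat, and their part in the oxidation genes was not tested.

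**Figure D5:**
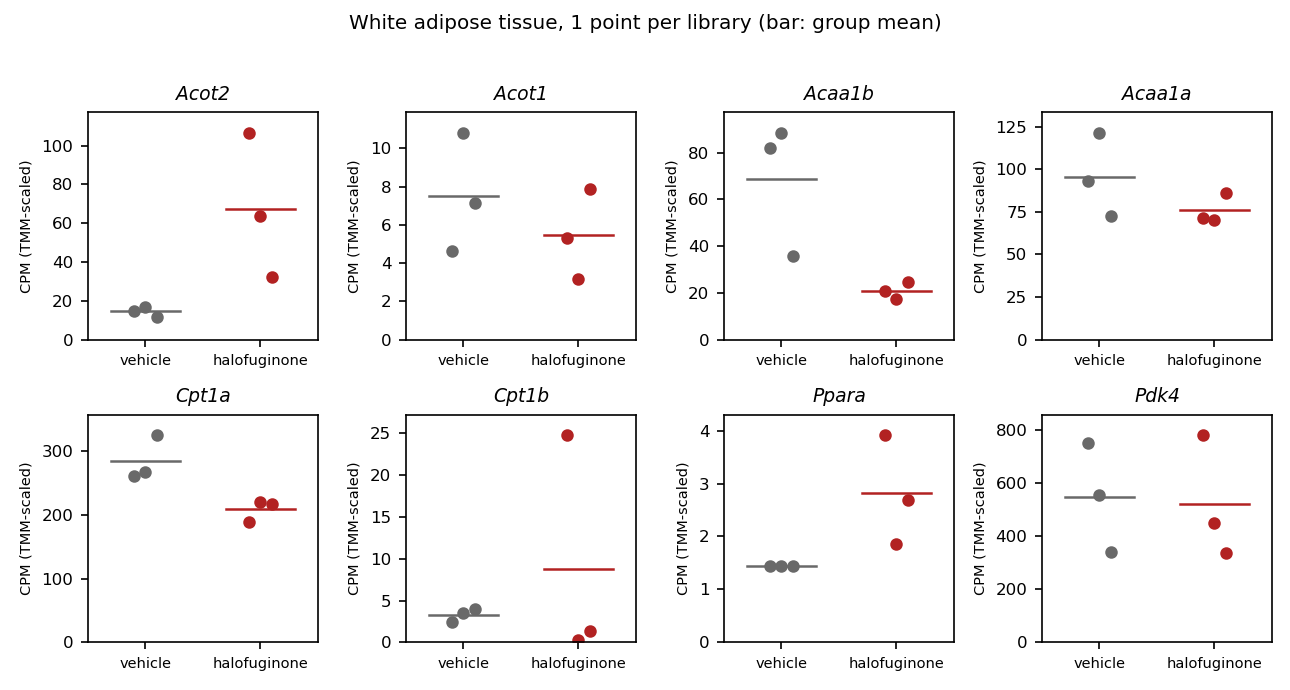
CPM of 8 genes in each white adipose library (y axes from 0, linear), vehicle in grey and halofuginone in red, with a bar at each group mean. The groups do not overlap for Acot2, Acaa1b, Cpt1a and Ppara, and a single treated library at 24.7 CPM sets the mean of Cpt1b.

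Of the wider pathway lists 70 of 79 genes were tested in fat and edgeR called 0. DESeq2 called 2 of the 70 higher, Slc22a5 (adjusted p 0.0131) and Fgf21 (0.0117), and 2 lower, Hacl1 (0.0465) and Cat (0.00194), beside 1.67% and 3.48% of all genes; Fgf21 and Hacl1 are named here after their values were seen. By edgeR the genes with the smallest p in each list, leaving out genes below 5 CPM in both groups, were the carnitine transporter Slc22a5 (0.65, p 0.00560), Slc16a6 (0.81, 0.0625), Cat (−0.85, 0.00380), Cyp4v3 (−0.50, 0.0611), Pparg (0.47, 0.0479) and Ucp2 (−0.62, 0.0243), with edgeR adjusted p between 0.183 and 0.398.

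The last comparison asked whether the drug effect differed between the tissues, by an interaction in 1 edgeR fit of all 16 libraries. Of 14853 genes 0.949% were called, and of the 29 oxidation genes 0 were, so a called drop in liver and no call in fat do not show a difference between the tissues. The effect in fat minus the effect in liver was above 0 for 24 of the 27 genes tested in fat, with a median of 0.42 against −0.038 over all genes. Cyp4a10 and Cyp4a14 entered this fit through their liver counts alone, and with at most 13 and 9 counts in any fat library their differences say nothing of fat. The smallest adjusted p was that of Pex11a (1.27, SE 0.36, adjusted p 0.102). Without halofuginone liver 1, 5 of the 29 were called as less lowered or higher in fat, against 2.94% of all genes called in that direction. These were Eci1 (1.23, adjusted p 0.0379), Etfa (0.80, 0.0320), Etfdh (0.93, 0.0137), Ehhadh (2.26, 0.0233) and Pex11a (1.43, 0.0195). DESeq2 called Pex11a alone (1.28, adjusted p 0.0313), against 2.02% of all genes called in that direction. For Acot2 the difference was 0.26 (SE 0.63, adjusted p 0.909), its effects being 1.93 in liver and 2.21 in fat. For Acaa1b it was 0.19 (SE 1.07, adjusted p 0.980), an estimate too wide to tell the tissues apart. Among the wider lists Pparg (1.71, adjusted p 0.0438) and Creb3l3, a liver transcription factor of the fasting response (−1.18, 0.0330), were called. With the replicate number as a block 0 of all genes were called lower, so the Creb3l3 call was lost. Whether the Pparg call stood without each library in turn is not given here. The wider lists had 12 genes called higher and 1 lower without halofuginone liver 1, beside 2.94% and 4.13% of all genes, and with DESeq2 9 and 1, beside 2.02% and 2.61%.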

How the data were processed

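Poly(A) RNA-seq of 10 livers and 6 white adipose libraries was used. Per the submitters' processing notes, fastp 0.18.0, Bowtie2 2.2.8, HISAT2, StringTie 1.3.1, RSEM and the build mm39 were used, with no role or order given. Strand and duplicate handling are not given in the sources used here. The authors deposited 1 table per tissue with a whole-number count and an FPKM per gene and library. In each library 1 to 31 genes had an FPKM above 0 although their count was 0, so the deposited counts may be rounded estimates, and reads shared by relatives may have been split. Symbols matched 22267 of 22322 identifiers, and 0 value columns were left unmapped.

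Counts were filtered (filterByExpr), TMM-scaled and tested with edgeR 4.0.16 in R 4.3.3 (glmQLFit and glmQLFTest, two-sided, Benjamini-Hochberg over all genes tested), within each tissue and, for the difference between tissues, in 1 fit of all 4 groups. DESeq2 1.42.0, limma 3.58.1 on log2 FPKM (pseudocount 1 or 0.1), other scalings and filters, a replicate block and leaving out each library were the alternatives. The scripts were tested on simulated data. The biological coefficient of variation was 0.229 in liver and 0.337 in fat. Where a gene has no count, up to 3 counts are compatible with that, or 0.0938 to 0.148 CPM in liver and 0.140 to 0.176 in fat; such floors cover counting error only. No 2 libraries of a group were alike within counting noise.

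The genes and all lists were chosen with earlier results of these data known. All 29 genes are named; of each wider list, up to 3 called genes with the largest change and at least 5 CPM in the higher group are named in liver, and in fat the 1 with the smallest p. Upstream sequences came from RefSeq (GRCm38.p6), which held 24 of the 29 genes; their bases before the start were used. Creb3l3 was named after its value was seen. Some results that this rule selects are not reported here.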

Additional observations from a re-analysis of the deposited data

Results flagged for a closer look

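For each gene or list, a liver was marked as standing apart when more than 0.71 of its group's range lay between it and its nearest neighbour. Of 100 sets of 5 livers tested in this way 9 held such a liver. About 1 in 20 sets, or 5, would by chance if the sets were independent and normally distributed. These sets share the same livers and the lists hold the same genes, so 9 against 5 is not a test of an excess. Of the 9, 6 concerned halofuginone liver 1, which was far above the other treated livers in Etfdh (367 CPM, next 198, gap 0.755 of the range), Ehhadh (739, next 167, gap 0.834), Acaa1b (934, next 151, gap 0.863), Acot1 (178, next 22.2, gap 0.900), Vnn1 (189, next 55.9, gap 0.844) and Ppargc1a (5.71, next 2.82, gap 0.718). In Etfdh, Acaa1b, Vnn1 and Ppargc1a it lay inside the vehicle range, and in Ehhadh and Acot1 above it. The cause was not tested.

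Among vehicle livers, number 5 was high in Acot1 (111 CPM, next 81.3, gap 0.714) and number 3 in Pdk4 (57.4 CPM, next 15.7, gap 0.852). Vehicle liver 3 was also the highest in the mean log2(CPM + 0.5) of the 5 genes outside the compartments (0.36, next −0.03, gap 0.720), of which Pdk4 is 1. The drug effect on Pparg differed between the tissues by 1.71 on the log2 scale (SE 0.37, edgeR adjusted p 0.0438): its mean was 18.7 CPM in vehicle and 7.76 CPM in treated liver (n = 5) and 141 and 196 CPM in vehicle and treated fat (n = 3).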

How the results depend on the processing

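Of the single-gene values recomputed under other scalings, filters, tests or a block, 814 kept their direction and their side of the threshold, 13 lost a call, 16 gained one and 17 changed sign. With 1 library left out these numbers were 979, 81, 17 and 35. Liver counts of all genes were 2789 higher and 838 lower with scaling by library size alone, and 784 and 780 lower with limma at pseudocounts of 0.1 and 1. In fat, 1 fit of all 16 libraries called 88 higher and 246 lower, with 1 oxidation gene higher; DESeq2 called 235 and 488, with 1 oxidation gene higher and 1 lower; limma with a pseudocount of 1 called 6 and 7, and edgeR without a filter called 1 lower. For the difference between tissues DESeq2 called 300 genes higher and 387 lower, with 1 oxidation gene higher. Directions turned under library size alone for liver Ppara (0.00059) and Cpt2 (0.032), fat Slc25a20 (0.034), and the difference between tissues in Acadl (−0.047) and Decr1 (−0.037). With limma at pseudocounts of 0.1 and 1 they turned for liver Cpt2 (0.0285 and 0.0282), fat Slc25a20 (0.036 and 0.035) and fat Acot1 (0.087 and 0.068), and at 0.1 for fat Cpt1b (−0.14). Fat Etfb was −0.0148 in 1 fit of all 16 libraries and −0.0142 with at least 5 CPM on average, where the difference in Acadl was −0.0089. None of the genes whose direction turned was called, and the cause was not tested.

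Leaving out 1 library at a time, liver calls over all genes ranged from 696 to 2628 higher and 579 to 2684 lower, both highest without halofuginone liver 1 and lowest without halofuginone liver 3, and oxidation genes called lower from 3 to 19. In fat 0 to 1 gene was called lower. For the difference between tissues 18 to 438 genes were called higher, 13 to 615 lower, and 0 to 5 oxidation genes higher. Log2 values that crossed 0 in this way were those of liver Ppara (−0.33 to 0.046) and Etfb (−0.012 to 0.14). In fat they were Cpt1b (−1.97 to 2.01), Cpt2 (−0.099 to 0.28), Slc25a20 (−0.16 to 0.12), Acads (−0.34 to 0.033), Acadvl (−0.13 to 0.35), Eci1 (−0.13 to 0.37), Etfb (−0.18 to 0.21), Ehhadh (−0.25 to 0.64) and Pdk4 (−0.47 to 0.22). For the difference between tissues they were Cpt1b (−1.30 to 2.66), Cpt2 (−0.0099 to 0.41), Acadl (−0.10 to 0.099), Decr1 (−0.17 to 0.20), Etfb (−0.30 to 0.14), Acaa1b (−0.13 to 1.73), Cyp4a14 (−1.34 to 2.26, too low in fat to be tested there), Acot1 (−0.037 to 1.96) and Acot2 (−0.25 to 0.66).

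The groups share replicate numbers, but same-numbered livers correlated in their deviations between −0.156 and 0.057 and fat libraries between −0.570 and 0.111, so a number is not taken as a pair. With the replicate number as a block, liver calls over all genes were 890 higher and 1011 lower, and of the oxidation genes 1 was higher and 7 lower: Acads (adjusted p 0.0516) and Hadha (0.0563) were no longer called and Acaa1b (−3.07, adjusted p 0.0373) was. Fat Cpt1b was then −0.73, and between tissues 2 genes were called higher and 0 lower, with Etfb at 0.069. Depth limits the lowest genes, in fat Cyp4a14, Cyp4a10, Bdh1, Ppara and Cpt1b, whose values rest on few counts; with 3 fat libraries a group, the absence of calls in fat does not show that the oxidation genes did not change.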
